A study of Mus musculus with 12 samples.

Results

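Dbp, Tef, Hlf, Nfil3, Ciart, Bhlhe40 and Bhlhe41 encode transcriptional regulators through which the circadian clock acts on its output genes. All 7 were chosen by symbol from the 24452 gene symbols of the count table, on a rule that named the direction of Dbp in a pair of contrasts: lower in GN_water than in Control_captopril, and higher in GN_captopril than in Control_water. Each was measured in 12 mRNA libraries from kidney cortex, in 4 groups of 3: mice with glomerulonephritis (GN) given captopril (GN_captopril), mice with GN given water (GN_water), control mice given captopril (Control_captopril) and control mice given water (Control_water). All mice were C57BL/6, labelled adult and male. GN, in which the glomeruli are inflamed, followed 6 weeks of intraperitoneal injections: 10 mg of apoferritin from horse spleen 5 times a week, and lipopolysaccharide (100 micrograms) 3 times a week. Control mice had saline. Kidneys were collected at week 9. The dose of captopril, an inhibitor of angiotensin-converting enzyme, is not given in the sources used here. Library titles carry number pairs, and whether a library is 1 mouse or a pool is not stated, so p-values measure the spread between libraries.

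In the mammalian clock, the activators CLOCK and BMAL1 (gene Arntl) bind E-box sequences and drive the genes of their own repressors, the PER and CRY proteins, together with output genes such as Dbp. DBP, TEF and HLF form the PAR bZIP family, activators named for a region rich in proline and acidic residues, and they bind D-box elements. NFIL3 (also called E4BP4) is a bZIP repressor that binds the same elements, and its RNA peaks in the opposite phase to that of Dbp in rodent liver. CIART (Chrono) and the helix-loop-helix proteins BHLHE40 (DEC1) and BHLHE41 (DEC2) repress CLOCK and BMAL1 activity. In mouse liver and kidney the PAR bZIP factors are known to regulate drug-metabolising enzymes. The hour of day at which kidneys were taken is not given in the sources used here, and at a single collection a shift in phase and a change in level cannot be told apart.

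Between 14.2 and 22.8 M reads (M, mega) were counted per library, and all 7 genes passed the filter on low counts. Sex-linked transcripts went against the label male in the GN_water and Control_captopril libraries. The Y-linked genes Ddx3y, Kdm5d, Uty and Eif2s3y were expressed, with levels in CPM (counts per 1 M counted reads, scaled by TMM) that summed to between 124 and 129 in GN_captopril and between 121 and 144 in Control_water. They summed to at most 0.0458 CPM in GN_water and 0.101 CPM in Control_captopril, where Xist lay at 181 to 212 and 314 to 375 CPM. Any 2 groups with the same disease label, or with the same treatment label, thus differ in these markers. Group names are used here as labelled. Whether labels were exchanged between groups was not tested, and an exchange would change what each labelled comparison, and the difference between GN changes, compares. Adrenal cortex markers were high in Control_captopril replicate 3, at a sum of 358 CPM, and in GN_captopril replicate 3, at 122 CPM, against 1.20 to 20.0 CPM in the other 10 libraries, where 1 to 6 of the 9 markers were at 0. Proximal tubule markers, which mark kidney cortex, summed to between 6793 and 12507 CPM in every library. In bulk tissue, fewer cells of a type and less RNA per cell cannot be told apart.

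Promoters of 4 of the genes are shown: Dbp, Tef and Ciart, which moved together across the groups, and Nfil3, which moved the other way. Hlf moved with Tef too, and its window is described and not shown. Each runs 5′ to 3′ on the gene's strand from 250 bases before to 50 after the transcription start (RefSeq, GRCm38.p6, the assembly that mm10 names), and 6 of the 7 genes had an entry in the table. Capitals mark matches, on either strand, to the E-box CACGTG, its variant CACGTT, the D-box TTANGTAA, the ROR element core AGGTCA or the cAMP response element TGACGTCA, none of which overlap here.
Dbp, chr7:45704997-45705296, plus strand: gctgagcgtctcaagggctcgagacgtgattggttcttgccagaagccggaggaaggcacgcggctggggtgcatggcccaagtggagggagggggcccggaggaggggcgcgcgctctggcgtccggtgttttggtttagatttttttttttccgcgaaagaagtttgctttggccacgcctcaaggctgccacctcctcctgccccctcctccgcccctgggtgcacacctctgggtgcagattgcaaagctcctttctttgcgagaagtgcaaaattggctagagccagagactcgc
Tef, chr15:81811164-81811463, plus strand: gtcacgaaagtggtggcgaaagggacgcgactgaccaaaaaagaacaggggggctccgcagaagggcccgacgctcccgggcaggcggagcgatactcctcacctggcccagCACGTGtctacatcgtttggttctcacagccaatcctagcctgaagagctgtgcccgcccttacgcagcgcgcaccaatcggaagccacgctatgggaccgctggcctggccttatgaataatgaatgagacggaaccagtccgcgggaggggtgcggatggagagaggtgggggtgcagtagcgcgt
Ciart, chr3:95882179-95882478, minus strand: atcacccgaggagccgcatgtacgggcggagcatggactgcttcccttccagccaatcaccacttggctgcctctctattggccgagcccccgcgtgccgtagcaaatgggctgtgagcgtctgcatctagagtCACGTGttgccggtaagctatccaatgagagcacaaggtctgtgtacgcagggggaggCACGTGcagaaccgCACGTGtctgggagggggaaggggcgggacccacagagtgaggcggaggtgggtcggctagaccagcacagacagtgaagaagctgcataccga
Nfil3, chr13:52980990-52981289, minus strand: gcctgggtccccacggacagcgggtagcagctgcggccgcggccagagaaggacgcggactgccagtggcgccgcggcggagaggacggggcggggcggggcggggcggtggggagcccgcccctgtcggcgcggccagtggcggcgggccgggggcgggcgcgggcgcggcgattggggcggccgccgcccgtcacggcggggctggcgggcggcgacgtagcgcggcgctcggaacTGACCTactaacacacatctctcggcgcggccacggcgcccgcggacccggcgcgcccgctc

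The Ciart window held 3 E-boxes, which start 116, 58 and 44 bases before the transcription start (positions -116, -58 and -44). Of 32817 promoter windows of this length, 7.15% held at least 1 CACGTG and 0.0884% (29) held at least 3. Tef has a pair of annotated windows with 1 E-box in each, at position -138 in the one shown and -127 in the other, and Bhlhe41 has 1 at -153. The Nfil3 window held no E-box and 1 AGGTCA core, at -12 on the opposite strand, a match found in 16.3% of windows. Hlf had no E-box and a cAMP response element at -9 (1.79% of windows). The Dbp window held none of the 5 motifs. None of the 6 genes with an entry had a match to the D-box (2.32% of windows) or the CACGTT variant (4.69%). Bhlhe40 had no entry and was not searched. These matches are a description of letters in a window and not of binding.

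Dbp (chromosome 7, 45705088 to 45710203, 4 merged exons) was abundant in GN kidneys labelled captopril and scarce in GN kidneys labelled water, with the controls between. Its level was 114, 122 and 125 CPM in GN_captopril, 10.4, 8.92 and 6.28 CPM in GN_water, 48.0, 42.9 and 46.6 CPM in Control_captopril, and 39.2, 49.4 and 59.1 CPM in Control_water. The GN groups lay on either side of all 6 control libraries, while the control groups overlapped. The means were 120.3 ± 5.63 CPM in GN_captopril, 8.52 ± 2.07 in GN_water, 45.8 ± 2.60 in Control_captopril and 49.3 ± 9.94 in Control_water (SD, n = 3 each), so the highest group mean was 14.1 times the lowest. An antisense neighbour, Sphk2, shares 18.0% of the exon bases of Dbp, and strand use in the counting is not stated. Sphk2 averaged 55.8 ± 6.44 CPM in GN_captopril and 54.6 ± 2.08 in GN_water (SD, n = 3 each), with a log2 fold change of 0.03 ± 0.08 (SE, adjusted p = 0.749, edgeR). It was lower in GN_water than in Control_water (-0.26 ± 0.07, adjusted p = 0.0105), the direction of Dbp there, and did not pass in GN_captopril against Control_captopril (-0.08 ± 0.07, adjusted p = 0.426), in Control_captopril against Control_water (-0.15 ± 0.07, adjusted p = 0.153) or in the difference between GN changes (0.18 ± 0.11, adjusted p = 0.173).

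Tef (chromosome 15, 81802421 to 81826863) followed the same order with a smaller range. It stood at 350.0, 387 and 354 CPM in GN_captopril, 117, 112 and 106 CPM in GN_water, 222, 185 and 235 CPM in Control_captopril, and 259, 269.7 and 267 CPM in Control_water. No group overlapped another, and Control_captopril lay below Control_water. Hlf (chromosome 11, 90336536 to 90390895) had the narrowest range of the 3 activators. Its values were 144, 144 and 135 CPM in GN_captopril, 70.0, 67.3 and 57.9 CPM in GN_water, 93.3, 94.8 and 113 CPM in Control_captopril, and 116, 124 and 136 CPM in Control_water. GN_captopril and Control_water overlapped for Hlf, and GN_water was again below every library of the other groups. The ratio of the highest to the lowest group mean was 3.26 for Tef and 2.17 for Hlf. For both genes, every library with Y-linked transcripts was above every library with Xist.

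**Figure D1:**
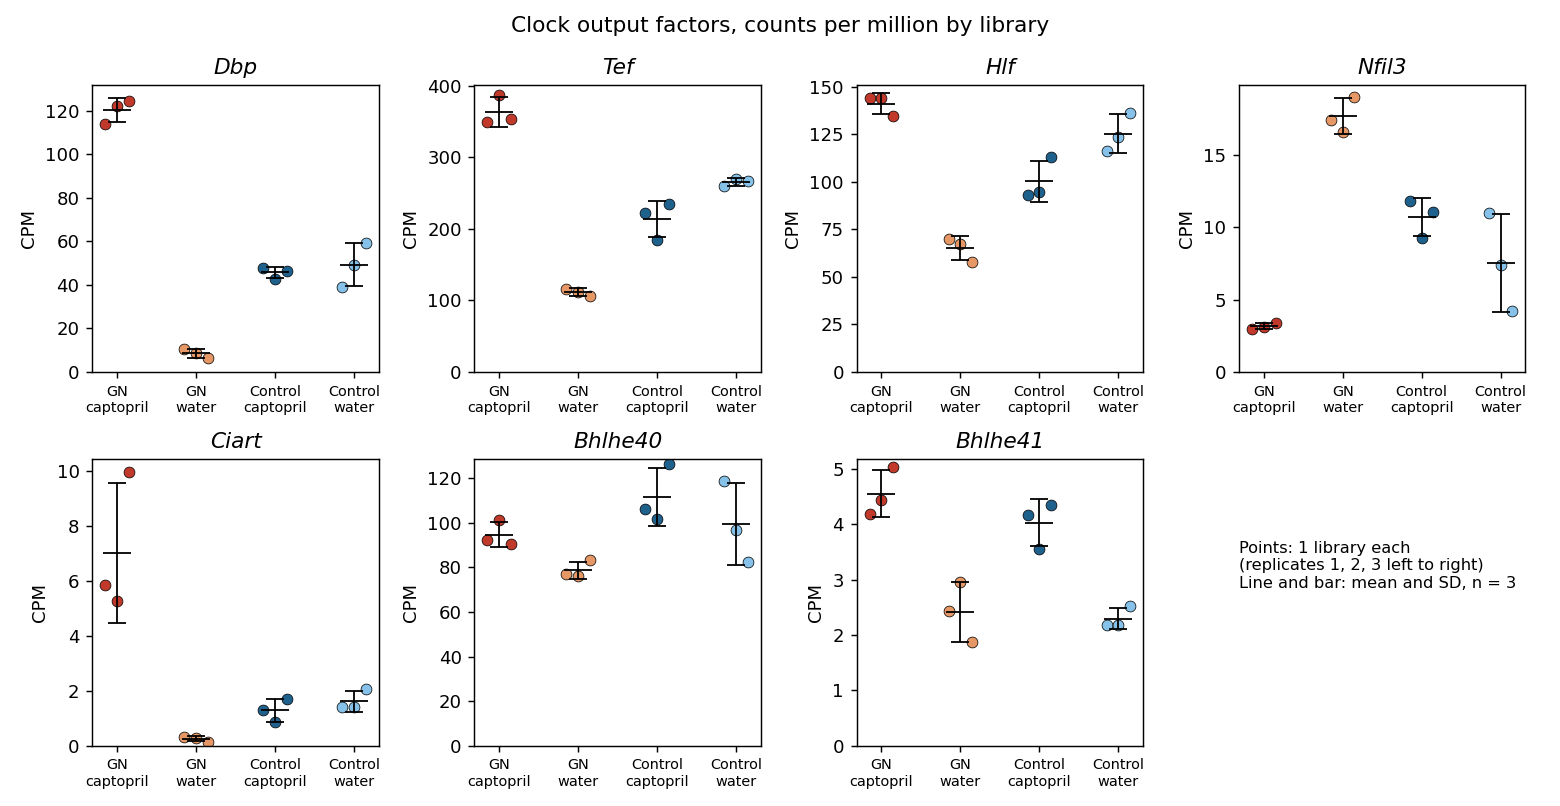
Level of each gene in CPM (y axis) in the 4 groups (x axis); points are single libraries, lines and bars the mean and SD of 3. Dbp, Tef, Hlf and Ciart were lowest in GN_water, and Nfil3 was highest there.

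Nfil3 (chromosome 13, 52967209 to 52981073), the repressor that shares the D-box, had the reverse order. It was measured at 2.99, 3.13 and 3.37 CPM in GN_captopril, 17.4, 16.6 and 19.0 CPM in GN_water, 11.8, 9.26 and 11.03 CPM in Control_captopril, and 10.99, 7.40 and 4.19 CPM in Control_water. Every GN_water library was above, and every GN_captopril library below, all the others. Control_water varied most, with a coefficient of variation of 45.2%, and the Control_water library with the least Nfil3 had the most Dbp. NFIL3 is also made by lymphoid and myeloid cells. Of 12 natural killer and T cell markers tested, 12 rose in GN_water against Control_water and 9 in GN_captopril against Control_captopril, as did 10 and 9 of 10 macrophage markers. Of all genes tested, 27.4% and 20.5% rose in these comparisons. The natural killer and T cell markers summed to 25.3 to 30.7 CPM in GN_captopril and 36.7 to 48.2 in GN_water, against 5.83 to 11.6 in Control_captopril and 9.64 to 10.2 in Control_water, with at most 1 of 13 at 0. Macrophage markers summed to 460.0 to 891 CPM in GN_captopril and 918 to 1304 in GN_water, against 123 to 170 in Control_captopril and 148 to 155 in Control_water, with none of the 10 at 0. Nfil3 and both of these marker sums were highest in GN_water. In GN_captopril, Nfil3 was below and both sums were above every control library. The part of these cells in the level of Nfil3 was not tested.

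Ciart (chromosome 3, 95878503 to 95882251), which encodes the repressor CHRONO, had the widest range of the 7. It reached 5.85, 5.27 and 9.97 CPM in GN_captopril, 0.321, 0.288 and 0.148 CPM in GN_water, 1.30, 0.875 and 1.72 CPM in Control_captopril, and 1.40, 1.40 and 2.06 CPM in Control_water. GN_captopril was above and GN_water below all control libraries, which overlapped one another. The GN_water values rest on 7, 7 and 3 counts, 17 in all, so the ratio of 27.9 between the highest and lowest group means is imprecise in its denominator.

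Bhlhe40 and Bhlhe41, paralogous repressors, did not share this order. Bhlhe40 (chromosome 6, 108660629 to 108666925) was at 92.1, 101.3 and 90.6 CPM in GN_captopril, 76.9, 76.1 and 83.1 CPM in GN_water, 106, 102 and 126 CPM in Control_captopril, and 119, 96.9 and 82.3 CPM in Control_water. GN_captopril, GN_water and Control_captopril were separate from one another, Control_water overlapped all 3, and group means differed by at most 1.41 times. Bhlhe41 (chromosome 6, 145858243 to 145865558) was at 4.18, 4.44 and 5.02 CPM in GN_captopril, 2.43, 2.96 and 1.88 CPM in GN_water, 4.17, 3.55 and 4.35 CPM in Control_captopril, and 2.19, 2.18 and 2.51 CPM in Control_water. Both captopril-labelled groups were above both water-labelled groups without overlap. Another transcript annotated on the opposite strand, Gm43909, covers 19.0% of the exon bases of Bhlhe41.

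Levels per kilobase of merged exon use lengths from GENCODE M21, and the authors' own gene models are not known here. On this scale Tef and Dbp were the most abundant in GN_captopril, at 46.2 ± 2.61 and 40.2 ± 1.88 CPM per kilobase. Hlf followed at 21.1 ± 0.820 and Bhlhe40 at 20.1 ± 1.22 (SD, n = 3). In GN_water the order differed. There Bhlhe40 stood first at 16.7 ± 0.814, followed by Tef at 14.2 ± 0.692, Hlf at 9.74 ± 0.948 and Nfil3 at 8.73 ± 0.608, and Dbp was at 2.85 ± 0.691 CPM per kilobase (SD, n = 3). Ciart and Bhlhe41 were at most 3.11 CPM per kilobase in any group mean.

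The comparisons that the labels imply ask what GN changed under each treatment and what captopril changed in each disease state. All 4 share libraries with the contrasts of the rule, so their tests are not independent of the choice of genes. In GN_water against Control_water, Tef fell (log2 fold change -1.25 ± 0.08 (SE), adjusted p = 7.03e-08, edgeR), as did Hlf (-0.94 ± 0.09, adjusted p = 2.22e-06) and Ciart (-2.62 ± 0.43, adjusted p = 2.04e-04), while Nfil3 rose (1.21 ± 0.22, adjusted p = 5.86e-04). Bhlhe40 fell by 0.34 on the log2 scale (SE 0.11, adjusted p = 0.0246), a call lost without Control_water replicate 1 (adjusted p = 0.134). Bhlhe41 did not pass (0.09 ± 0.19, adjusted p = 0.716). Dbp, whose direction is part of the rule, is given without a test in the labelled comparisons, and its log2 fold change here was -2.52 ± 0.16 (SE). Of the 6 genes tested, 4 were lower and 1 higher, where 51.2% of all 14618 genes passed (27.4% higher and 23.9% lower). The libraries of these groups did not overlap for 5 of the 7 genes, beside 59.7% of all genes.

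In GN_captopril against Control_captopril Tef, Hlf and Ciart moved up and Nfil3 down. Tef rose (0.77 ± 0.08 (SE), adjusted p = 6.13e-06, edgeR), Hlf rose (0.49 ± 0.09, adjusted p = 6.82e-04), Ciart rose (2.43 ± 0.30, adjusted p = 3.16e-05) and Nfil3 fell (-1.76 ± 0.26, adjusted p = 1.45e-04). Dbp differed by 1.39 ± 0.14 on the log2 scale. Bhlhe40 (-0.23 ± 0.11, adjusted p = 0.122) and Bhlhe41 (0.18 ± 0.17, adjusted p = 0.435) did not pass, though Bhlhe40 did without Control_water replicate 1 (adjusted p = 0.0476). Thus 3 of 6 were higher and 1 lower, against 20.5% and 19.3% of all genes (39.8% in either direction). For 6 of the 7 the libraries did not overlap (50.7% of all genes).

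Of the 4 labelled comparisons, the one between the GN groups gave the largest absolute log2 fold changes for all the genes but Bhlhe40. In GN_captopril against GN_water, Ciart rose by 4.74 ± 0.38 on the log2 scale (SE, adjusted p = 5.98e-07, edgeR), Tef by 1.71 ± 0.08 (adjusted p = 3.95e-09), Hlf by 1.12 ± 0.09 (adjusted p = 7.00e-07) and Bhlhe41 by 0.90 ± 0.18 (adjusted p = 0.00113). Nfil3 fell (-2.48 ± 0.25, adjusted p = 5.99e-06). Dbp differed by 3.81 ± 0.16, and Bhlhe40 missed the threshold at 0.27 ± 0.11 (adjusted p = 0.0733), which it passed without Control_water replicate 1 (adjusted p = 0.0254) or 3 (adjusted p = 0.0366). These were 4 higher and 1 lower of 6, with 19.6% and 25.5% of all genes called higher and lower (45.1% in all). For none of the 7 did the libraries of these groups overlap, as for 56.1% of all genes.

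Between the control groups Bhlhe41 had the largest change of the genes called. In Control_captopril against Control_water, Bhlhe41 rose (0.81 ± 0.18 (SE), adjusted p = 0.00357, edgeR) and Tef (-0.31 ± 0.08, adjusted p = 0.00758) and Hlf (-0.32 ± 0.09, adjusted p = 0.0132) fell, 3 of 6 where 32.4% of all genes passed (15.4% higher and 17.0% lower). The libraries did not overlap for these 3 of the 7 (43.7% of all genes). Nfil3 (0.48 ± 0.23, adjusted p = 0.13), Ciart (-0.31 ± 0.33, adjusted p = 0.522) and Bhlhe40 (0.16 ± 0.11, adjusted p = 0.311) did not pass, and Dbp had a log2 fold change of -0.10 ± 0.14. Without Control_water replicate 1, Nfil3 and Bhlhe40 passed (adjusted p = 0.00448 and 0.0287), which made 5 of 6. Hlf missed the threshold without Control_water replicate 3, Control_captopril replicate 1 or Control_captopril replicate 2 (adjusted p = 0.0637, 0.0545 and 0.057), and on the authors' RPKM values Tef and Hlf did (adjusted p = 0.0621 and 0.097). The Control_captopril libraries carry Xist and the Control_water libraries the Y-linked transcripts, so treatment and the sex-linked difference cannot be told apart here either.

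**Figure D2:**
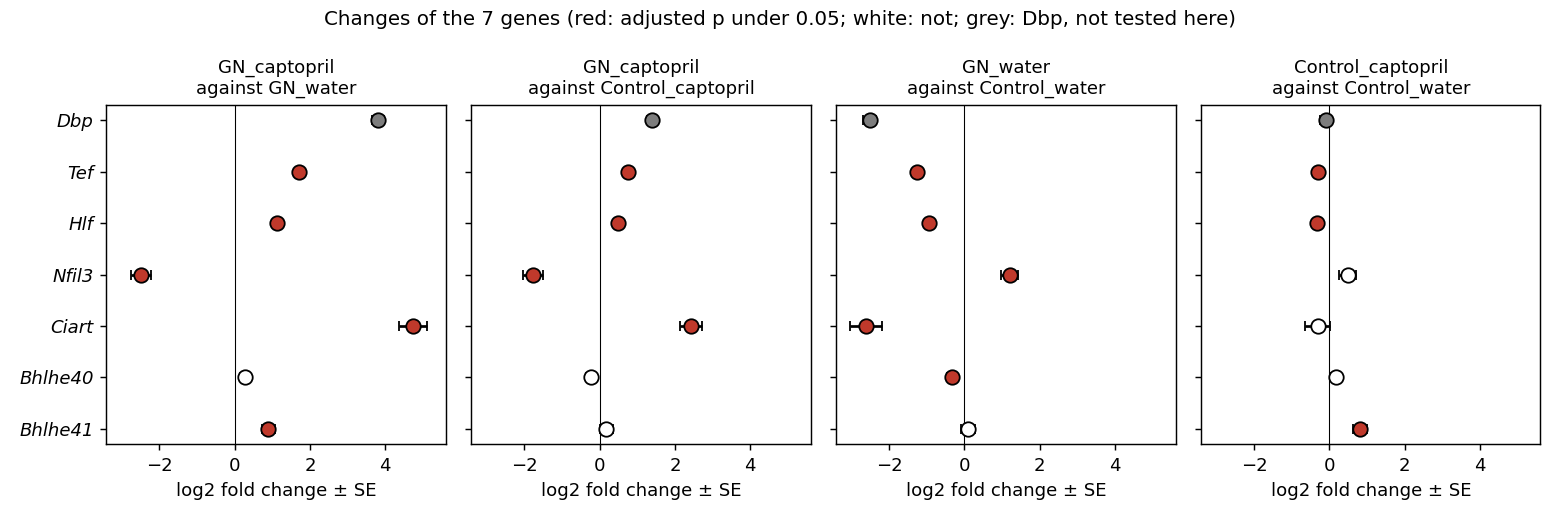
Log2 fold change with its SE (x axis) of each gene (y axis) in the 4 labelled comparisons from edgeR; red points passed an adjusted p of 0.05, white points did not, and grey points mark Dbp, which was not tested. Tef, Hlf and Ciart lay right of zero in GN_captopril against Control_captopril and left of it in GN_water against Control_water, and Nfil3 did the reverse.

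The difference between the GN changes is (GN_captopril minus Control_captopril) minus (GN_water minus Control_water), and was tested for all 7 genes. It is orthogonal to both contrasts of the rule, though it rests on the same libraries. For Dbp this does not make it independent of the choice, since its control groups were alike (-0.10 in Control_captopril against Control_water). With controls alike, the directions in the rule (-2.42 in GN_water against Control_captopril, 1.29 in GN_captopril against Control_water) make the difference positive. The test and rank of Dbp are therefore no independent support. It was 3.91 ± 0.21 on the log2 scale for Dbp (SE, adjusted p = 7.52e-09, edgeR), 2.02 ± 0.11 for Tef (adjusted p = 8.47e-09), 1.44 ± 0.13 for Hlf (adjusted p = 7.35e-07), 5.05 ± 0.52 for Ciart (adjusted p = 3.22e-06) and -2.96 ± 0.34 for Nfil3 (adjusted p = 1.04e-05). Bhlhe40 (0.11 ± 0.16, adjusted p = 0.61) and Bhlhe41 (0.09 ± 0.25, adjusted p = 0.794) did not pass, with 95% intervals from -0.24 to 0.45 and from -0.46 to 0.63. The 5 genes called (4 higher, 1 lower) stand beside 50.7% of all genes called (23.6% higher and 27.1% lower), so the count alone says little. By size, 142 of the 14618 genes tested had a larger absolute difference than Ciart, 217 a larger one than Dbp, 370 than Nfil3, 758 than Tef and 1495 than Hlf. The same contrast separates the libraries with Y-linked transcripts from those with Xist, and the treatment dependence of the GN change and the sex-linked difference cannot be told apart in it. All 5 calls were kept when Control_captopril replicate 3 and GN_captopril replicate 3, with the most adrenal counts, were left out together, with differences of 3.90 for Dbp, 2.11 for Tef, 1.56 for Hlf, 4.96 for Ciart and -2.98 for Nfil3.

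The contrasts that chose the genes, in which sex-linked markers are matched, are given as a description. In GN_water against Control_captopril the log2 fold changes were -2.42 for Dbp, -2.31 for Ciart, -0.94 for Tef, -0.72 for Bhlhe41, -0.62 for Hlf, -0.50 for Bhlhe40 and 0.72 for Nfil3, and the libraries of the groups did not overlap for any of the 7 (49.5% of all genes). In GN_captopril against Control_water they were 2.12 for Ciart, 1.29 for Dbp, 0.99 for Bhlhe41, 0.45 for Tef, 0.17 for Hlf, -0.07 for Bhlhe40 and -1.28 for Nfil3, without overlap for 5 of 7 (28.6% of all genes). Hlf and Bhlhe40 overlapped there.

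Reads of the activators relative to Nfil3 within a library do not depend on scaling between libraries. There were 38.1, 39.1 and 36.9 Dbp reads per Nfil3 read in GN_captopril, 0.595, 0.537 and 0.330 in GN_water, 4.06, 4.64 and 4.22 in Control_captopril, and 3.57, 6.67 and 14.1 in Control_water. GN_water was the only group with fewer Dbp than Nfil3 reads. For Tef the ratio was 105 to 124 in GN_captopril and 5.56 to 6.74 in GN_water, against 18.8 to 21.3 in Control_captopril and 23.6 to 63.8 in Control_water. The share of Dbp among the reads of Dbp, Tef and Hlf was 18.7% to 20.3% in GN_captopril and 3.69% to 5.25% in GN_water, against 11.8% to 13.3% in Control_captopril and 9.46% to 12.8% in Control_water. Gene length enters each ratio as a constant, so they compare libraries and not genes.

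**Figure D3:**
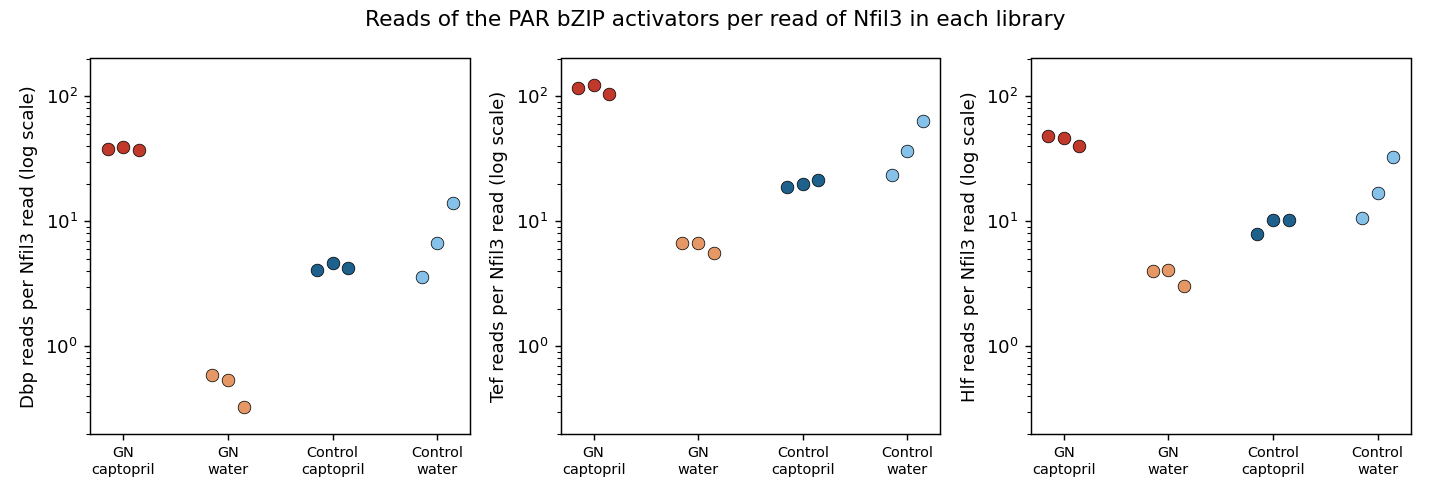
Reads of Dbp, Tef and Hlf per read of Nfil3 (log scale, y axis) in each library by group (x axis). All GN_captopril libraries lie above, and all GN_water libraries below, the 6 control libraries in each panel.

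The core clock genes show how the loop that drives these outputs stood in the same libraries. Beside the counts for this and the following lists stand the shares of all genes called higher and lower. They were 27.4% and 23.9% in GN_water against Control_water, and 20.5% and 19.3% in GN_captopril against Control_captopril. In GN_captopril against GN_water they were 19.6% and 25.5%, and in Control_captopril against Control_water 15.4% and 17.0%. For the difference between GN changes they were 23.6% and 27.1%. Of 13 core clock genes tested, 3 were higher and 6 lower in GN_water than in Control_water, with a median log2 fold change of -0.04 (0.01 over all genes). In GN_captopril against Control_captopril 4 were higher and 2 lower (median -0.09, and -0.0045 over all genes), and in GN_captopril against GN_water 6 were higher and 3 lower (median -0.10, and -0.05 over all genes). In Control_captopril against Control_water 1 was higher and 2 lower (median -0.04). The difference between GN changes was called upward in 5 and downward in 3 (median -0.08, and -0.07 over all genes). Upward were Per2, Per3, Cry2, Nr1d2 and Rora, and downward Arntl, Clock and Csnk1e. The list holds activators together with their repressors, so its median does not describe the loop as a whole.

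Among the repressors of the loop, Per3 was at 24.8 ± 2.57 CPM in GN_captopril, 4.56 ± 0.347 in GN_water, 13.7 ± 2.23 in Control_captopril and 19.0 ± 0.922 in Control_water (SD, n = 3 each). Both groups with Y-linked transcripts had higher Per3 means than both groups with Xist. The same held for Per2, Nr1d2 and Rora, and the reverse for Csnk1e, while Cry2, Arntl and Clock did not split this way. The GN change of Per3 differed by 2.92 ± 0.17 on the log2 scale between treatments (SE, adjusted p = 1.35e-08, edgeR). Per2, Cry2 and Nr1d2, which encodes REV-ERB beta, had GN changes that also differed upward between treatments (1.95 ± 0.27, 1.07 ± 0.19 and 1.33 ± 0.10 on the log2 scale, SE, adjusted p = 5.97e-05, 3.77e-04 and 2.35e-07, edgeR). Per1 did not pass in this contrast (-1.05 ± 0.50, adjusted p = 0.0996). Arntl, which encodes the activator BMAL1, was lowest in GN_captopril and highest in GN_water, as Nfil3 was: 4.22 ± 1.05 CPM in GN_captopril, 20.3 ± 2.21 in GN_water, 12.4 ± 4.03 in Control_captopril and 13.5 ± 2.53 in Control_water (SD, n = 3 each). Its GN change differed by -2.12 ± 0.32 between treatments (SE, adjusted p = 1.05e-04). Its partner Clock differed by -0.43 ± 0.14 (adjusted p = 0.018), and Npas2, a paralog of Clock, did not pass (-0.44 ± 0.34, adjusted p = 0.304). Rora, whose product activates Arntl, differed upward by 0.86 ± 0.10 (adjusted p = 1.61e-05). Of the kinases that act on PER stability, Csnk1e differed by -0.74 ± 0.15 (adjusted p = 0.0014) and Csnk1d did not pass (-0.09 ± 0.07, adjusted p = 0.334). Cry1 did not pass either (-0.25 ± 0.28, adjusted p = 0.473). Nr1d1, which encodes REV-ERB alpha, a repressor of Arntl and Nfil3, was lower in GN_water than in Control_water (-0.65 ± 0.15, adjusted p = 0.00222), and did not pass in GN_captopril against Control_captopril (-0.34 ± 0.14, adjusted p = 0.0796), and the difference between these changes did not pass (0.32 ± 0.20, adjusted p = 0.215).

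**Figure D4:**
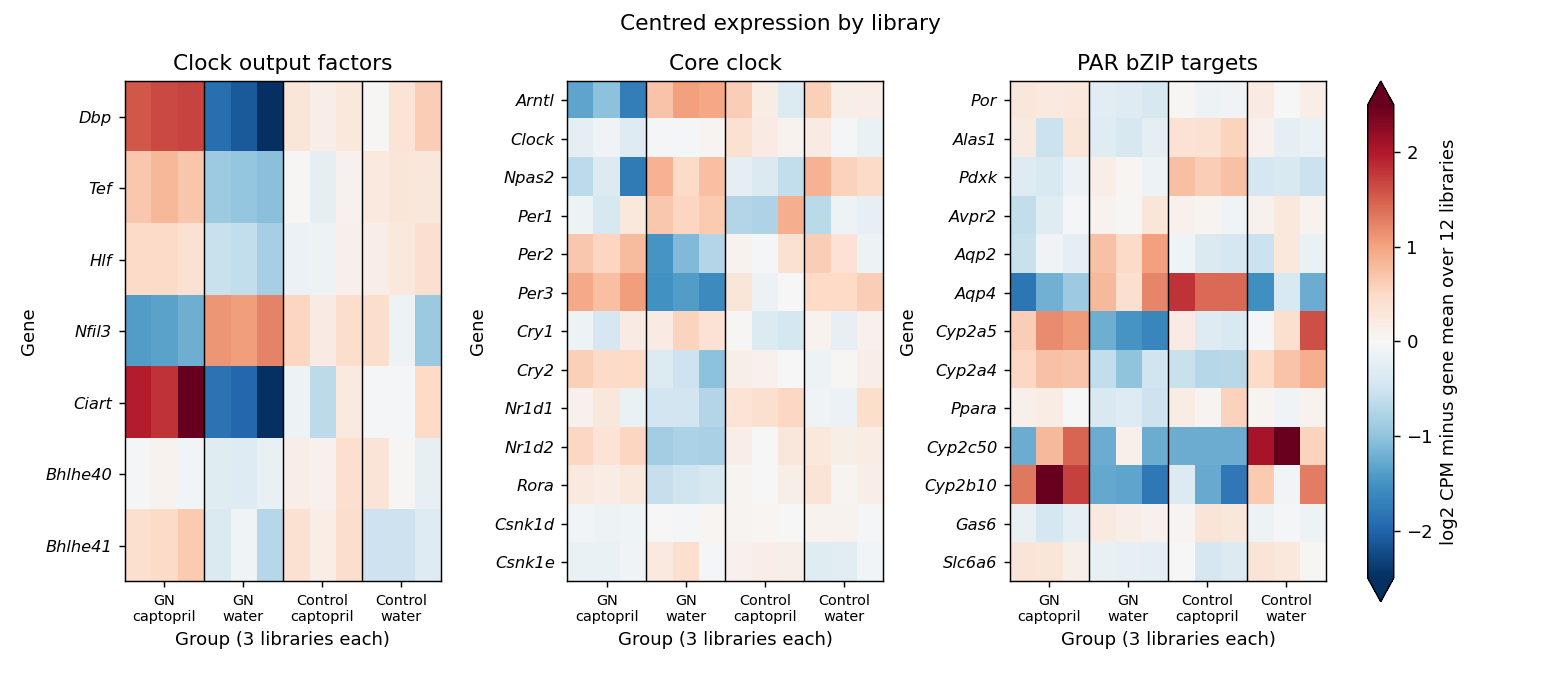
Log2 CPM of each gene (rows) minus its mean over 12 libraries, by library (columns, 3 per group), for the clock output factors, core clock genes and reported targets of the PAR bZIP factors. Dbp, Ciart and Per3 are red in GN_captopril and blue in GN_water, and Nfil3 and Arntl are the reverse.

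Targets reported for the PAR bZIP factors in mouse liver, brain or kidney moved in both directions. Of 16 listed, 13 were tested: 4 were higher and 7 lower in GN_water than in Control_water (median log2 fold change -0.42), 6 higher and 4 lower in GN_captopril than in Control_captopril (median 0.01), 6 higher and 5 lower in GN_captopril than in GN_water (median 0.46) and 4 higher and 6 lower in Control_captopril than in Control_water (median -0.18). Por, the electron donor of microsomal P450 enzymes, was highest in GN_captopril and lowest in GN_water, at 441 ± 4.0 CPM in GN_captopril, 292 ± 11.1 in GN_water, 353 ± 20.2 in Control_captopril and 405 ± 28.4 in Control_water (SD, n = 3 each). Cyp2a5, a P450 that DBP activates in mouse liver, was at 182 ± 36.5 CPM in GN_captopril, 34.1 ± 5.09 in GN_water, 83.7 ± 19.7 in Control_captopril and 164 ± 103 in Control_water. The near-identical Cyp2a4 can take up some of its reads, and was at 777 ± 59.3 CPM in GN_captopril, 306 ± 52.8 in GN_water, 315 ± 19.4 in Control_captopril and 809 ± 118 in Control_water, an order that followed the sex-linked markers. The means of Por and Cyp2a5 were also higher in both groups with Y-linked transcripts than in both with Xist. The GN change of the taurine transporter Slc6a6 differed upward between treatments (0.93 ± 0.14, SE, adjusted p = 1.25e-04, edgeR) and that of the growth factor Gas6 downward (-0.78 ± 0.11, adjusted p = 4.88e-05). Both followed the sex-linked markers. Slc6a6 averaged 563 CPM in GN_captopril and 549 in Control_water, against 408 in GN_water and 398 in Control_captopril. Gas6 had the reverse split, at 541 and 617 CPM against 741 and 774 in the same order of groups. Of the water channel genes, Aqp4 had 11.8 ± 3.55 CPM in GN_captopril, 51.4 ± 14.4 in GN_water, 84.1 ± 14.1 in Control_captopril and 14.5 ± 6.44 in Control_water (SD, n = 3 each), in which the groups with Xist were the high ones. Aqp2, the vasopressin-regulated channel of the collecting duct, was higher in GN_water than in Control_water (0.87 ± 0.18, SE, adjusted p = 0.0015, edgeR) and did not pass in GN_captopril against Control_captopril (0.01 ± 0.19, adjusted p = 0.986), and the difference between these changes was -0.87 ± 0.26 (adjusted p = 0.0139). In the difference between GN changes the target list gave 6 higher and 4 lower.

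Other rhythmic outputs were mixed too. Of 12 tested, 1 was higher and 3 lower in GN_water than in Control_water, 3 higher and 3 lower in GN_captopril than in Control_captopril, 5 higher and 5 lower in GN_captopril than in GN_water, and 4 higher and 2 lower in Control_captopril than in Control_water. The difference between GN changes was called upward in 4 and downward in 4 (median log2 difference -0.06, and -0.07 over all genes). Usp2, a deubiquitinase, differed by 1.20 ± 0.22 (SE, adjusted p = 5.05e-04, edgeR), Tspan4 by 0.79 ± 0.15 (adjusted p = 8.16e-04) and Nampt, an enzyme of NAD synthesis, by 0.35 ± 0.11 (adjusted p = 0.0169). The RNA-binding Rbm3 did not pass (0.66 ± 0.31, adjusted p = 0.0967), and the vasopressin receptor Avpr1a differed by -1.81 ± 0.16 (adjusted p = 8.18e-07). The means of Usp2 and Tspan4 were higher, and those of Avpr1a lower, in both groups with Y-linked transcripts than in both with Xist. Nampt did not split this way.

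Of 11 tested genes of the CEBP, ATF and HES families, which share the bZIP or helix-loop-helix fold with these factors, 3 were higher and 1 lower in GN_water than in Control_water, 1 higher and 6 lower in GN_captopril than in Control_captopril, 5 lower in GN_captopril than in GN_water, and 6 higher and 1 lower in Control_captopril than in Control_water. In the difference between GN changes 6 were called, each downward (median -0.64), where 50.7% of all genes were called and 27.1% were called downward. Cebpg (-0.64 ± 0.11, SE, adjusted p = 2.95e-04, edgeR), Cebpa (-0.74 ± 0.11, adjusted p = 1.17e-04) and Hes1 (-0.51 ± 0.12, adjusted p = 0.00305) were called and Atf4 was not (-0.23 ± 0.12, adjusted p = 0.115). Cebpd, an activator induced in inflammation, differed by -3.62 ± 0.31 (adjusted p = 6.33e-07). The means of Cebpg, Cebpa, Hes1 and Cebpd were higher in both groups with Xist than in both with Y-linked transcripts, and Atf4 did not split this way.

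Glucocorticoids rise and fall daily and act on clock genes. Of 12 glucocorticoid-induced genes, 5 were higher and 3 lower in GN_water than in Control_water, 1 higher and 6 lower in GN_captopril than in Control_captopril, 3 higher and 6 lower in GN_captopril than in GN_water, and 6 higher and 1 lower in Control_captopril than in Control_water. The difference between GN changes was called upward in 3 and downward in 6 (median -1.08), beside 23.6% and 27.1% of all genes. It was 0.53 ± 0.16 for Errfi1 (SE, adjusted p = 0.0124, edgeR), 0.53 ± 0.20 for Klf9 (adjusted p = 0.0374), -2.30 ± 0.21 for the metallothionein Mt1 (adjusted p = 1.14e-06) and 0.26 ± 0.25 for Fkbp5, a co-chaperone of the glucocorticoid receptor (adjusted p = 0.398). Sgk1, a kinase that raises sodium transport, was at 36.0 ± 1.53 CPM in GN_captopril, 146 ± 23.9 in GN_water, 92.4 ± 17.4 in Control_captopril and 53.6 ± 11.5 in Control_water (SD, n = 3 each). The means of Sgk1 and Mt1 were higher in both groups with Xist than in both with Y-linked transcripts. For Mt1 they were 160 CPM in GN_water and 141 in Control_captopril, against 76.9 in GN_captopril and 60.2 in Control_water. Errfi1 and Klf9 had the reverse split, and Fkbp5 had neither.

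Marker sums of other nephron cells moved with the same contrast. Podocyte markers summed to 338 to 423 CPM in GN_captopril and 535 to 653 in GN_water, against 604 to 644 in Control_captopril and 422 to 484 in Control_water. All 5 were called downward in the difference between GN changes, as were 6 of 7 distal nephron and collecting duct markers, whose sums were 3509 to 4208 CPM in GN_captopril and 6221 to 7474 in GN_water, against 6769 to 8148 in Control_captopril and 4250 to 5243 in Control_water. Proximal tubule markers summed to 9011 to 10830 CPM in GN_captopril and 6793 to 7511 in GN_water, against 8489 to 8789 in Control_captopril and 10905 to 12507 in Control_water, with 2 of 6 called upward and 3 downward. Of all genes, 23.6% were called upward and 27.1% downward in the difference between GN changes. These sums split by the sex-linked markers. Podocyte and distal sums were higher in every library with Xist than in every library with Y-linked transcripts, and proximal tubule sums were lower. Changes with disease or treatment and the sex-linked difference cannot be told apart in them. No podocyte, distal or proximal marker was at 0 in any library. B and plasma cell markers summed to 45.6 to 111 CPM in GN_captopril and 209 to 709 in GN_water, against 7.74 to 13.5 in Control_captopril and 6.00 to 6.55 in Control_water, and adipocyte markers ran from 0.399 to 106 CPM within GN_captopril. The part of these shifts in the values of the clock output factors was not tested.

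Among 13464 other genes with a mean of at least 1 CPM, the profile nearest to that of Dbp over the 12 libraries was Per3, with a root mean square difference of 0.553 in centred log2 CPM. Next were Aim1l (0.604), Cyp2a5 (0.640), Esm1 (0.767), Gm11128 (0.773), Pank1 (0.774), Upp2 (0.837) and Per2 (0.839). Ciart, at 0.433, was closer to Dbp than any of these. Nearest to the sign-reversed Dbp profile were Loxl4 (0.664), Adamts8 (0.718), Sgk1 (0.791), Mybl2 (0.792) and Npy1r (0.800), and Nfil3 was at 0.690. Tef lay nearest to Acot12 (0.167), Pank1 (0.208) and Nr1d2 (0.208), and was 0.224 from Hlf. Hlf lay nearest to Sephs2 (0.115), Kcnj15 (0.127) and Neu2 (0.143). Nfil3 was nearest to Npnt (0.360), Sgk1 (0.370) and Prom1 (0.411), and Ciart to Aim1l (0.675), Upp2 (0.782) and Per3 (0.788). Bhlhe40 was nearest to Fam126b (0.0855), Sox6 (0.0969) and Pde4dip (0.107), and Bhlhe41 to Lrrc75b (0.177), Plin5 (0.237) and Eif4ebp3 (0.265). Genes with a small range give small differences, so these values rank likeness within 1 gene and not between genes.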

How the data were processed

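RNA of 12 kidney cortex samples was sequenced as stranded mRNA libraries, 3 per labelled group. The authors deposited expected counts (estimated reads per gene symbol, 13.6% of entries not whole), which were rounded here, and RPKM values. The submitters' processing notes name Bowtie2, Partek and mm10. No source used here gives versions, annotation, filters or strand use. A filter (filterByExpr, minimum count 10, minimum total 15) kept 14618 of 24452 symbols. After TMM scaling, edgeR 4.0.16 (R 4.3.3) fitted a quasi-likelihood model with 1 mean for each of the 4 groups. Tests were two-sided. Benjamini-Hochberg adjustment covered all genes that passed the filter (threshold 0.05). Each SE was derived from the fold change and its F statistic. CPM use TMM-adjusted totals, and profile distances use log2 CPM with a prior count of 2. The authors' RPKM entered as an alternative (limma 3.58.1 on log2(RPKM + 0.1)) and beside the levels per kilobase. DESeq2 1.42.0 was another alternative. The tests were checked on simulated data in which few genes changed, in GN_captopril alone. That check does not cover changes in as many genes as were called here. Coordinates and exon lengths came from GENCODE M21 and promoters from RefSeq GRCm38.p6.

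The members and gene lists were chosen with earlier results of these data known. The genes named were the members, the core clock genes, up to 4 of each other list by mean CPM, and the nearest profiles. Cyp2a5, Aqp2, Aqp4, Avpr1a, Cebpd, Sgk1, Sphk2 and Gm43909 were named in addition after their values were seen. Some core clock genes are not reported here and were left out of the list, its counts and its medians.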

Additional observations from a re-analysis of the deposited data

Results flagged for a closer look

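The change in GN differed between the captopril and water labels for 5 of the 7 genes by the interaction test of edgeR (captopril minus water, log2). It was 3.91 for Dbp, 2.02 for Tef, 1.44 for Hlf, 5.05 for Ciart and -2.96 for Nfil3, in a contrast that also separates libraries with Y-linked transcripts from those with Xist. The value of Dbp is not independent of the rule that chose it. The groups hold 3 libraries each, too few to call a single library an outlier. Between counts of Control_water replicate 1 and replicates 2 and 3, chi-square per degree of freedom was 14.5 and 13.7. These were the largest values between any replicates, and replicates 2 and 3 of that group were at 5.33.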

How the results depend on the processing

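The 5 calls in the difference between GN changes were made under every alternative that could be run. Among the labelled comparisons, 1 of the 6 genes tested passed in Control_captopril against Control_water with limma on log2(RPKM + 0.1), against 3 in edgeR. Leaving out each library in turn gave 2 to 5 there, 4 to 5 in GN_captopril against Control_captopril and in GN_water against Control_water, and 5 to 6 in GN_captopril against GN_water. Bhlhe40 in GN_water against Control_water also missed the threshold with upper quartile scaling (adjusted p = 0.06) and on RPKM (0.383). In GN_captopril against GN_water Bhlhe40 passed with DESeq2 (adjusted p = 0.04) and with only the groups compared (0.00473). Of the values tested, those that changed sign were uncalled: Bhlhe41 in GN_water against Control_water (-0.12 to 0.19 with 1 library left out, lowest without GN_water replicate 2), and in the difference between GN changes Bhlhe40 (-0.15 on RPKM, -0.046 to 0.22 with 1 library left out, lowest without Control_water replicate 1) and Bhlhe41 (-0.085 on RPKM, -0.018 to 0.30 with 1 library left out, lowest without GN_water replicate 3). Untested values also crossed 0 with 1 library left out for Dbp in Control_captopril against Control_water (-0.24 to 0.05) and Bhlhe40 in GN_captopril against Control_water (-0.19 to 0.08). On RPKM with its pseudocount of 0.1, Ciart in GN_water against Control_captopril was -1.35 and Bhlhe41 in GN_captopril against Control_water was 0.83. The causes of these changes were not tested. Over all genes, counts of calls stayed within 1.5 times those given. Libraries with the same title number did not deviate together (median correlation across genes 0.01, range -0.24 to 0.24 over 18 pairs), and the replicate block left 3, 4, 5, 5 and 5 genes called in Control_captopril against Control_water, GN_captopril against Control_captopril, GN_captopril against GN_water, GN_water against Control_water and the difference between GN changes. With only the groups compared, the difference could not be fitted. Depth limits Ciart in GN_water most, at 3 to 7 counts.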
